A study of Mus musculus with 6 samples.

Results

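The Ras-like small GTPases described here are 8 genes of the mouse Ras family: Rasl10a, Rasl10b, Rasl11a, Rasl11b, Rasl12, Rasd1, Rem2 and Rit2. They were read by every probe set whose platform annotation gives 1 of these symbols and no other, which came to 11 of the 45101 probe sets on the array. The set was drawn up around Rasl10a and Rasl11b, which were chosen by their large falls in ZnR mice. The differences of the others were also known, so the values of all 8 genes between the diets are given as a description. Where their calls in the fit over all probe sets are counted, the counts are no test of these genes. RNA came from the medial prefrontal cortex, both hemispheres, of 6 male 129S1/SvImJ mice, an inbred strain, at an age of 8 to 10 weeks. The 3 ZnR mice (mice 3, 7 and 11) were on a diet that the labels describe as a zinc diet, and the 3 control mice (mice 1, 5 and 9) were on a control diet. The composition of neither diet is given in the sources used here. All 6 mice had fear extinction training and were killed 2 h after it, so no untrained mouse enters the comparison. The comparison asks how RNA of the tissue taken differed between ZnR and control mice after extinction.

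Small GTPases of the Ras family switch between a GTP-bound active and a GDP-bound inactive form. Exchange factors load them with GTP, GTPase-activating proteins speed its hydrolysis, and effectors such as Raf kinases and Rassf proteins bind the active form. The members form the less studied branches of the family. Rasl10a and Rasl10b are a pair of related proteins, and human RASL10A has been described as a growth inhibitor. Rasl11a and Rasl11b are another pair, and mouse Rasl11a has been tied to the transcription of ribosomal RNA genes. Rasd1, also called Dexras1, was found as a gene induced by the glucocorticoid dexamethasone. Rem2 binds the beta subunits of voltage-gated calcium channels, lowers their current, and shapes dendrites in neurons. Rit2 is made almost only in neurons and binds calmodulin.

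The promoter sequences of Rasl10a and Rasl11b, the genes lower in ZnR mice, and of Rem2, whose values were higher in ZnR mice, are printed to show what stands before each start. They are the 250 bases before the annotated start, from RefSeq on build GRCm38.p6, written 5′ to 3′ on the gene's strand. Capitals mark the GC box GGGCGG, or CCGCCC where it lies on the other strand. The table of promoters matched 5 of the 8 members, and Rasl10b, Rasd1 and Rit2 were not among them. Rem2 is therefore the only tested member with a higher mean in ZnR mice whose window is given. No contrast by direction is read from these windows.
Rasl10a, chr11:5057878-5058127, plus strand: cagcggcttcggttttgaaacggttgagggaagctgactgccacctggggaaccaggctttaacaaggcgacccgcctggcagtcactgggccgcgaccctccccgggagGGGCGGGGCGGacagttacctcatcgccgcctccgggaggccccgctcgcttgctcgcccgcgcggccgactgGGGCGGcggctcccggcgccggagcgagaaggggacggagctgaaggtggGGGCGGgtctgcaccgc
Rasl11b, chr5:74195076-74195325, plus strand: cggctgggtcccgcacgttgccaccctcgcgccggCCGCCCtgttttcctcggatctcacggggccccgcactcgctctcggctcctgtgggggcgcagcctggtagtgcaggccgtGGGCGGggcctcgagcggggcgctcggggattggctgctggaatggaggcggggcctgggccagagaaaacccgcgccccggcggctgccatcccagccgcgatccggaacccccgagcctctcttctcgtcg
Rem2, chr14:54475850-54476099, plus strand: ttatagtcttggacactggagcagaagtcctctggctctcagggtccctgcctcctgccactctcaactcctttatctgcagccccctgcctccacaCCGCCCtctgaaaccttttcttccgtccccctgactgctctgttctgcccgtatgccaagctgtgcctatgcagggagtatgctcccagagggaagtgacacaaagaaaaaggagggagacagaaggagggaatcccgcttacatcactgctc

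The windows of Rasl10a and Rasl11b were rich in G and C. Rasl10a had 72.4% G and C with 29 CpG dinucleotides, and Rasl11b had 74.0% with 30, against medians of 52.4% and 6 over the 32851 windows of this length in the table. Of all windows, 6.45% had at least the GC share of Rasl10a and 4.91% at least that of Rasl11b. Rem2 had 55.6% and 4 CpG dinucleotides, Rasl12 had 59.2% and 8, and Rasl11a, the paralogue of Rasl11b, had 63.6% and 15. The GC box occurred 4 times before Rasl10a, where the first pair shares 1 base, 2 times before Rasl11b and 1 time before Rem2, and 32.7% of all windows held at least 1. The cAMP response element TGACGTCA (in 1.55% of windows), the AP-1 site TGANTCA (6.75%), the E-box CAGATG (14.4%) and the TATA box TATAAA (12.4%) were searched on both strands and had no match in these windows of the 5 members. The CCAAT box (33.8% of windows) had 1 match before Rasl11b and 1 before Rasl11a, and the shorter TGACG, part of the cAMP response element (17.8%), had 1 before Rasl11a. A match describes letters only, and no binding was measured.

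The medians over all probe sets were 4.46 to 4.52 log2 units, which follows from the GCRMA processing, since it makes distributions alike. The 18S ribosomal RNA control probe sets averaged 8.44, 10.9 and 11.5 log2 units in ZnR mice 3, 7 and 11, against 9.09, 11.4 and 12.4 in control mice 1, 5 and 9. ZnR mouse 3 and control mouse 1 were the lowest, and each ZnR mouse was below the control mouse with the neighbouring number. The members' differences are therefore also given for that low-18S pair alone and for the other 4 mice alone. Where it is not said otherwise, values are log2 expression values, errors of means are SD with n = 3 mice per diet, and errors of differences, ZnR minus control, are moderated standard errors (SE) from limma over all probe sets. With 3 arrays per diet, their number limits the precision. In whole tissue, fewer cells of a type and less RNA per cell cannot be told apart.

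Of the 11 probe sets, 9 from 7 genes exceeded 4 log2 units on at least 3 of the 6 arrays and entered the fit. Past an adjusted p of 0.05 in that fit lay 2 of the 9, both lower in ZnR mice, while 1.01% of the 25381 probe sets tested were called lower, 0.461% higher and 1.47% either way. The values of the 2 diets did not overlap in 6 of the 9, with 2 lower and 4 higher in ZnR mice, beside 23.7% of all probe sets tested (10.6% lower and 13.1% higher). Since the members were chosen with this comparison known, these counts follow from the choice and nothing is read from them.

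**Figure D1:**
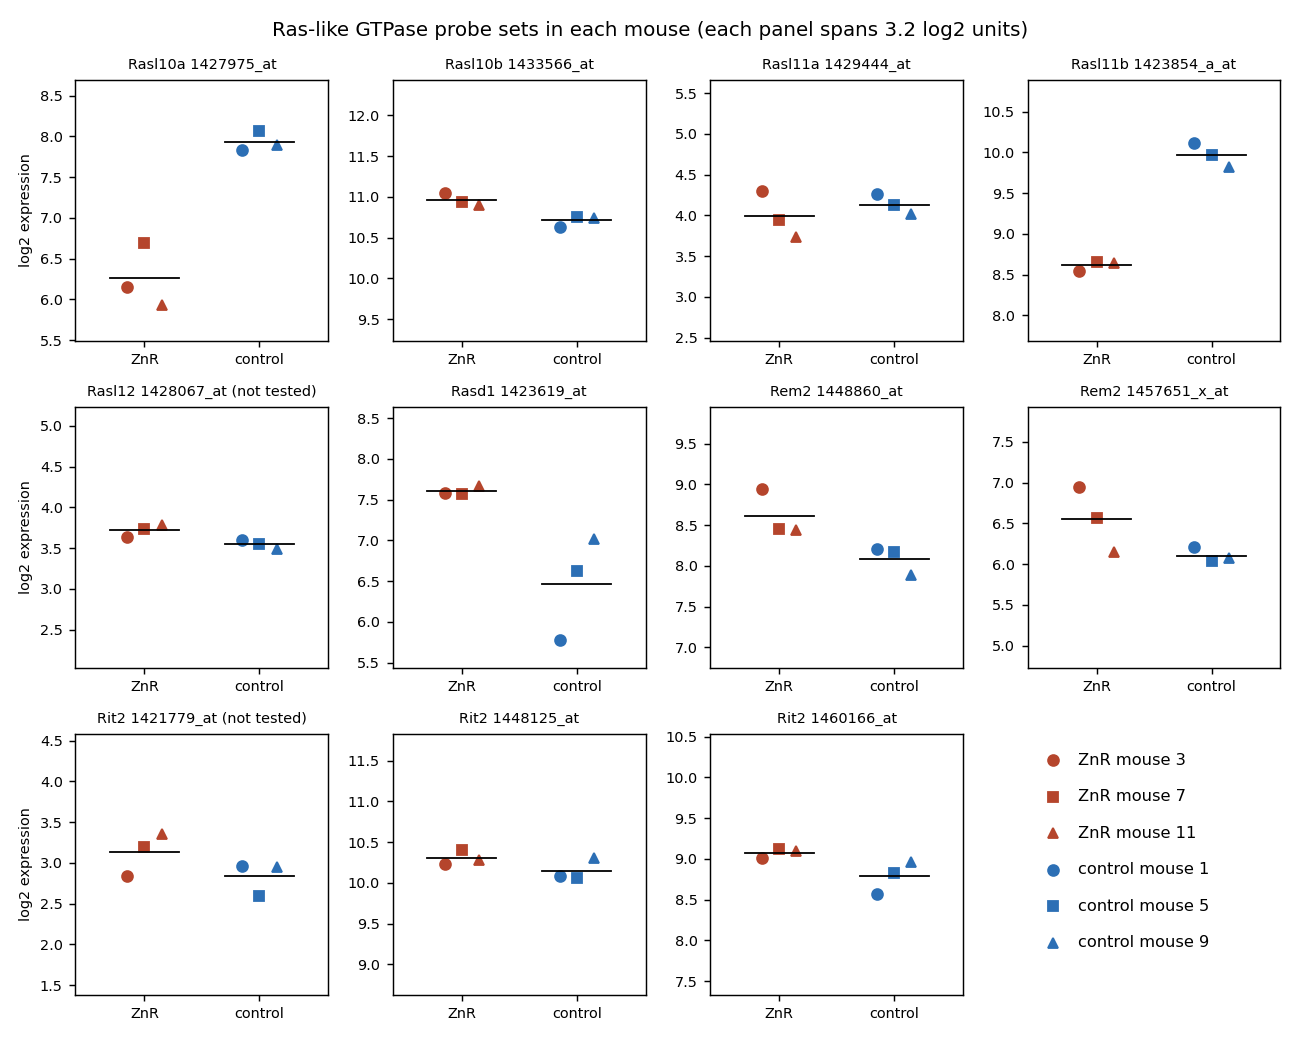
Log2 expression of each member probe set in each mouse, ZnR mice at left (red) and control mice at right (blue), with the mean of each diet as a black line; every panel spans the same number of log2 units, and a symbol marks the same mouse throughout. The ZnR mice lie lower than the control mice with a wide gap for Rasl10a and Rasl11b, and Rasd1 shows 3 ZnR mice close together beside widely spread control mice.

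Rasl10a was the member with the largest difference. It measured 6.16, 6.70 and 5.93 in ZnR mice 3, 7 and 11, against 7.84, 8.06 and 7.89 in control mice 1, 5 and 9. The highest ZnR mouse stood 1.14 log2 units below the lowest control mouse, and the ZnR mice were spread more widely than the control mice. The means were 6.26 ± 0.39 in ZnR mice and 7.93 ± 0.12 in control mice, which is 3.18-fold lower with ZnR (log2 difference -1.67 ± 0.19 SE). By size its drop was number 4 among 11749 genes, a rank that follows from its choice by a large fall. The low-18S pair alone gave -1.68 and the other 4 mice gave -1.67. With 1 mouse left out the difference ran from -1.89 (without ZnR mouse 7) to -1.50 (without ZnR mouse 11).

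Rasl10b, its paralogue, went the other way by a small amount. It measured 11.05, 10.94 and 10.90 in ZnR mice 3, 7 and 11, against 10.63, 10.76 and 10.74 in control mice 1, 5 and 9. The ZnR mice were all above the control mice by a gap of 0.15. The log2 difference was 0.25 ± 0.09 SE, or 1.19-fold. The low-18S pair gave 0.42 and the other 4 mice 0.17. On average the paralogues differed by diet in opposite directions.

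Rasl11b, which in zebrafish has been linked to Nodal signalling, fell with little spread. It measured 8.55, 8.66 and 8.64 in ZnR mice 3, 7 and 11, against 10.11, 9.97 and 9.82 in control mice 1, 5 and 9. All ZnR mice lay within a narrow band that ended 1.16 log2 units below the lowest control mouse. The means were 8.62 ± 0.06 in ZnR mice and 9.97 ± 0.15 in control mice, so ZnR mice had a 2.55-fold lower level (log2 difference -1.35 ± 0.10 SE). The low-18S pair gave -1.56 and the other 4 mice -1.24, and the difference ran from -1.42 to -1.28 when each mouse was left out in turn.

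Rasl11a, the paralogue of Rasl11b, was dim on these arrays. It measured 4.30, 3.95 and 3.74 in ZnR mice 3, 7 and 11, against 4.26, 4.12 and 4.01 in control mice 1, 5 and 9. The groups overlapped, and the log2 difference was -0.14 ± 0.15 SE, smaller than its own error. The low-18S pair gave 0.04 and the other 4 mice -0.23, and the difference ran from -0.29 without ZnR mouse 3 to -0.01 without ZnR mouse 11.

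Rasl12 stayed under the level needed for the fit in all 6 mice. It measured 3.63, 3.74 and 3.78 in ZnR mice 3, 7 and 11, against 3.60, 3.55 and 3.49 in control mice 1, 5 and 9. The ZnR mice were higher by a gap of 0.04 only, with a difference of 0.04 in the low-18S pair and 0.24 in the other 4 mice. These values carry no fit and no error beyond their spread.

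Rasd1 had the largest difference upward among the members, and the most uneven control mice. It measured 7.58, 7.57 and 7.66 in ZnR mice 3, 7 and 11, against 5.77, 6.63 and 7.01 in control mice 1, 5 and 9. All ZnR mice were above all control mice, by a gap of 0.56, with control mouse 1 the lowest of the 6. The means were 7.61 ± 0.05 in ZnR mice and 6.47 ± 0.63 in control mice, which is 2.20-fold (log2 difference 1.13 ± 0.28 SE). Among all probe sets tested, 0.504% had a larger SD over the control mice than Rasd1, while 87.4% had a larger SD over the ZnR mice. The low-18S pair gave 1.81 and the other 4 mice 0.80. Without control mouse 1 it was 0.79, and without control mouse 9 it was 1.41.

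Rem2 was read by 2 probe sets, which differed by diet to a like degree. Probe set 1448860_at measured 8.95, 8.45 and 8.44 in ZnR mice 3, 7 and 11, against 8.21, 8.17 and 7.89 in control mice 1, 5 and 9. The diets did not overlap there, ZnR mouse 3 was the highest, and the log2 difference was 0.52 ± 0.16 SE, or 1.44-fold. Probe set 1457651_x_at, whose suffix marks probes that may also bind other transcripts, measured 6.95, 6.57 and 6.15 in ZnR mice 3, 7 and 11, against 6.21, 6.03 and 6.07 in control mice 1, 5 and 9. Here ZnR mouse 11 lay below control mouse 1, and the log2 difference was 0.45 ± 0.19 SE. Without ZnR mouse 3 the differences were 0.36 and 0.25. In the low-18S pair both were 0.74, and in the other 4 mice they were 0.42 and 0.30.

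Rit2 was read by 3 probe sets, of which 1421779_at was too dim for the fit, with 2.84 to 3.35 in ZnR mice and 2.59 to 2.96 in control mice (difference -0.12 in the low-18S pair and 0.50 in the other 4 mice). Probe set 1448125_at measured 10.23, 10.40 and 10.27 in ZnR mice 3, 7 and 11, against 10.08, 10.06 and 10.30 in control mice 1, 5 and 9. The groups overlapped through control mouse 9, and the log2 difference was 0.15 ± 0.10 SE (0.14 in the low-18S pair and 0.16 in the other 4 mice). Probe set 1460166_at measured 9.01, 9.12 and 9.09 in ZnR mice 3, 7 and 11, against 8.57, 8.83 and 8.97 in control mice 1, 5 and 9. The diets were apart there by a gap of 0.04, and the log2 difference was 0.29 ± 0.12 SE (0.44 in the low-18S pair and 0.21 in the other 4 mice). Control mouse 1 was the lowest mouse on 1460166_at, as it was for Rasd1 and Rasl10b.

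**Figure D2:**
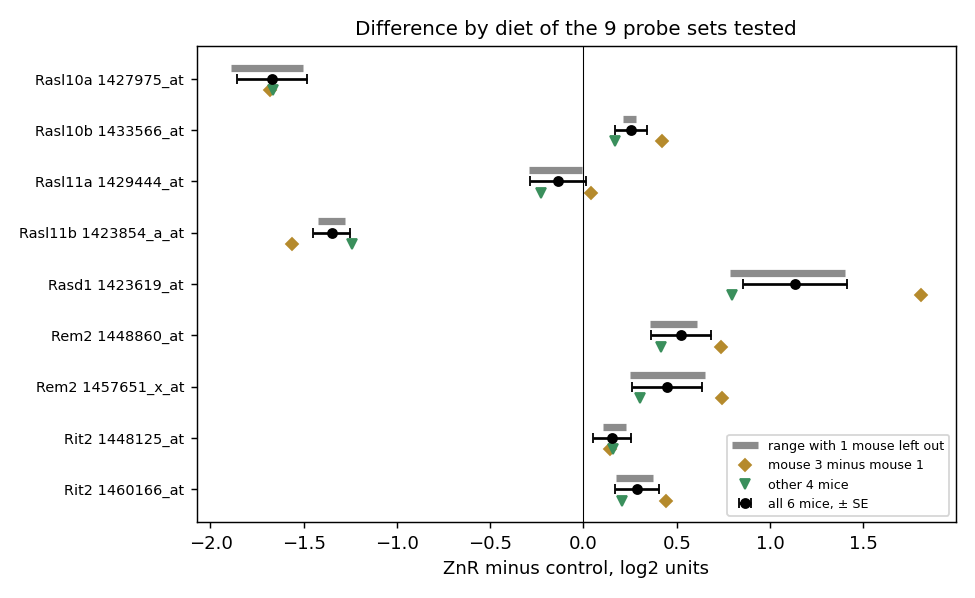
Log2 difference, ZnR minus control, of the 9 member probe sets tested: black points with bars give all 6 mice ± SE, grey bars the range when each mouse is left out in turn, diamonds the low-18S pair (ZnR mouse 3 minus control mouse 1) and triangles the other 4 mice. Rasl10a and Rasl11b are below 0 in every subset, which had to be so because their diets do not overlap. Rasd1 is 1.81 in the low-18S pair and 0.80 in the other mice.

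The genes whose pattern over the 6 mice was most like that of Rasl10a were found by the root mean square difference between log2 values centred on each gene's own mean, over 11749 genes. They were Crhbp (0.13 log2 units), Rtn4rl2 (0.22), Tnnc1 (0.22), Cbln2 (0.25) and Cabp1 (0.25). Crhbp encodes the binding protein of corticotropin-releasing hormone, Rtn4rl2 a relative of the Nogo receptor, Tnnc1 a troponin, Cbln2 a secreted synapse organiser and Cabp1 a calcium-binding protein. Crhbp measured 6.40, 6.93 and 6.19 in ZnR mice 3, 7 and 11, against 7.89, 8.00 and 7.88 in control mice 1, 5 and 9. As for Rasl10a, ZnR mouse 7 was the highest and ZnR mouse 11 the lowest of the ZnR mice. Crhbp was picked for its likeness over these same values, so nothing is read from the shared order. The other genes did not share it. ZnR mouse 3 was the highest ZnR mouse for Rtn4rl2 and Cabp1, and the lowest for Tnnc1 and Cbln2. The log2 differences of the 5 genes lay between -1.50 and -1.42.

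Rasl11b had closer neighbours. They were Fhl2 (0.06 log2 units), Igfbp6 (0.10), Slc30a3 (0.12), Ttc9b (0.14) and Slc17a7 (0.15). Fhl2 encodes a LIM domain protein, Igfbp6 a binding protein of insulin-like growth factors, Slc30a3 the zinc transporter of synaptic vesicles, and Slc17a7 the vesicular glutamate transporter of cortical excitatory neurons. Fhl2 measured 7.22, 7.28 and 7.23 in ZnR mice 3, 7 and 11, against 8.60, 8.50 and 8.33 in control mice 1, 5 and 9. In Fhl2 as in Rasl11b, control mouse 1 was the highest and control mouse 9 the lowest of the control mice. Here too the gene was picked for its likeness, so nothing is read from the shared order. The log2 differences of the 5 genes lay between -1.23 and -1.08. Rasl10a and Rasl11b differed from each other by 0.30, which made Rasl11b the tenth nearest gene to Rasl10a and Rasl10a number 69 for Rasl11b. Genes with a large difference by diet are alike by this measure for that reason alone.

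**Figure D3:**
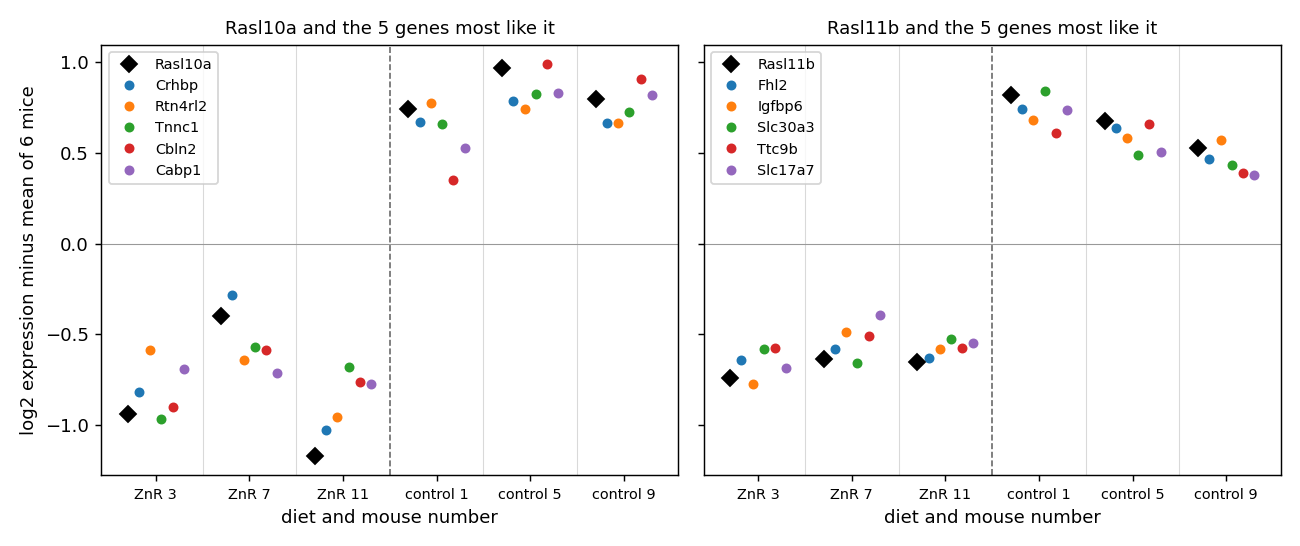
Log2 expression minus the gene's mean over the 6 mice, for Rasl10a (left panel) and Rasl11b (right panel) as black diamonds and for the 5 genes most like each as coloured points, with the 3 ZnR mice left of the dashed line and the 3 control mice right of it. The genes shown were picked for their likeness over these values. ZnR mouse 7 is the highest ZnR mouse for Rasl10a and Crhbp but not for all genes of that panel, and the ZnR points of Rasl11b lie close together.

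Markers of cortical excitatory neurons were lower in the same mice. Of 8 listed markers 7 were measured and all 7 had a lower mean in ZnR mice, 5 of them with a called fall. Over all genes, 1.27% were called lower and 0.655% higher. The median log2 difference of the 7 markers was -0.84. Their summed log2 level was 60.4 to 61.6 in ZnR mice and 66.5 to 67.3 in control mice, and no measured marker was at 0. Nrn1, which encodes neuritin, had the smallest p of the list and fell 2.41-fold (log2 difference -1.27 ± 0.10 SE, limma adjusted p = 0.00624). It passed in every fit with 1 mouse left out but that without control mouse 5 (adjusted p = 0.0686). The other called markers passed in fewer of these fits than Nrn1, and some passed in none. Slc17a7, the marker nearest to Rasl11b in pattern, measured 8.86 to 9.15 in ZnR mice, against 9.93 to 10.28 in control mice (difference -1.42 in the low-18S pair and -0.91 in the other 4 mice). The differences of these markers ran from -1.27 to -0.18, and their mean was -0.98 in the low-18S pair and -0.72 in the other 4 mice. What part the excitatory neuron markers have in the lower levels of Rasl10a and Rasl11b was not tested.

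Markers of striatal neurons, of choroid plexus and ependyma, and of astrocytes were higher on average in the ZnR mice. All 10 measured of 12 striatal medium spiny neuron markers were higher on average, 2 past the threshold, with a summed log2 level of 109.4 to 111.8 in ZnR mice and 101.9 to 107.2 in control mice. Among them the receptor gene Gpr6 rose 1.49-fold (limma adjusted p = 0.0275), a call lost when any 1 mouse was left out (adjusted p from 0.0571 to 0.117). The mean difference of the striatal list was 0.46 in the low-18S pair and 0.61 in the other 4 mice. All 6 measured of 8 choroid plexus and ependyma markers were higher on average, 2 past the threshold, with sums of 33.6 to 35.0 in ZnR mice and 24.0 to 30.2 in control mice, the lowest in control mouse 1. Tmem212 had the smallest p of that list and rose 2.71-fold (limma adjusted p = 0.0374), and with 1 mouse left out it passed only without control mouse 1 (adjusted p = 0.0303). The mean difference of that list was 1.61 in the low-18S pair and 0.88 in the other 4 mice. Astrocyte markers were all higher on average, 8 of 8, with 1 past the threshold, Gfap (1.73-fold, limma adjusted p = 0.0214), which with 1 mouse left out passed only without ZnR mouse 7 (adjusted p = 0.0408). The share of these markers in the higher values of Rasd1, Rem2, Rasl10b and Rit2 was not tested.

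Of the other marker lists, interneurons had 1 of 8 past the threshold, Vip (2.00-fold lower, limma adjusted p = 0.0208), with 5 higher and 3 lower on average. Of the fits with 1 mouse left out, Vip passed only in that without ZnR mouse 7 (adjusted p = 0.0324). No oligodendrocyte (0 of 7), oligodendrocyte precursor (0 of 5), microglia (0 of 6), endothelial (0 of 5) or leptomeningeal (0 of 4) marker passed in limma. In that order, 1, 3, 0, 1 and 2 of them had an unadjusted p under 0.05, beside 18.8% of all genes. All 7 oligodendrocyte, all 5 precursor and all 4 leptomeningeal markers were higher on average (median log2 differences 0.36, 0.34 and 0.74). All 6 microglia markers were lower (median -0.11), and of the endothelial markers 4 were higher and 1 lower (median 0.07). The genes with the smallest p in these lists were Cnp (log2 difference 0.35 ± 0.14 SE), Gpr17 (0.34 ± 0.09 SE), P2ry12 (-0.16 ± 0.12 SE), Cldn5 (0.34 ± 0.12 SE) and Igf2 (0.88 ± 0.29 SE). The 4 erythroid markers had no probe set in the fit.

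The rest of the Ras pathway was described through lists of related genes, each gene by its brightest probe set. Over all 11749 genes 1.92% passed the threshold, 1.27% lower and 0.655% higher, 18.8% had an unadjusted p under 0.05, and the median log2 difference was 0.03. Of 21 other GTPases of the Ras subfamily, 0 passed in limma, 5 had an unadjusted p under 0.05, 7 were higher and 14 lower on average, and the median difference was -0.05. Rasd2, the close relative of Rasd1 that is known for its high level in striatum, measured 10.53, 10.21 and 10.44 in ZnR mice 3, 7 and 11, against 9.97, 9.67 and 9.53 in control mice 1, 5 and 9. Every ZnR mouse was above every control mouse, as for Rasd1, and the log2 difference was 0.67 ± 0.14 SE (limma adjusted p = 0.0658). A block for the low-18S pair brought it past the threshold (limma adjusted p = 0.0336). Without that pair Rasd2 did not pass (0.128), nor when any 1 mouse was left out (0.0606 to 0.201). Its other probe set measured 0.91, and striatal markers were higher in the same mice, as given above. What part striatal tissue has in the values of Rasd2 was not tested. Rap2a, a GTPase of the Rap branch, measured -0.31 ± 0.09 SE (limma adjusted p = 0.131), and its other probe set went the other way (0.19).

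Regulators of the GTPase cycle gave 1 call. Of 20 exchange factors 0 passed in limma, 5 had an unadjusted p under 0.05, and the median difference was 0.04. Rasgef1c measured -0.53 ± 0.17 SE (limma adjusted p = 0.167) and Rapgef5 -0.25 ± 0.09 SE (0.188). Of 17 GTPase-activating proteins 1 fell and 16 did not pass, 4 had an unadjusted p under 0.05, and the median difference was -0.06. The one that fell was Garnl3, named for its similarity to Rap GTPase-activating proteins. It measured 7.26, 7.13 and 7.45 in ZnR mice 3, 7 and 11, against 8.11, 7.95 and 7.90 in control mice 1, 5 and 9. The diets did not overlap, and Garnl3 fell 1.63-fold with ZnR (log2 difference -0.71 ± 0.11 SE, limma adjusted p = 0.0345). It did not pass when any 1 mouse was left out, with adjusted p between 0.0668 (control mouse 9) and 0.125 (control mouse 5). Rap1gap2 measured -0.57 ± 0.14 SE (limma adjusted p = 0.108).

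Among effectors and the MAP kinase relay, 1 of 25 genes fell, 24 did not pass, 5 had an unadjusted p under 0.05, and the median difference was -0.05. The gene was Rassf5, which encodes an effector of Ras and Rap. It measured 7.44, 7.66 and 7.34 in ZnR mice 3, 7 and 11, against 8.36, 8.31 and 8.11 in control mice 1, 5 and 9. The diets did not overlap, and Rassf5 fell 1.72-fold with ZnR (log2 difference -0.78 ± 0.12 SE, limma adjusted p = 0.03). Its other probe set measured -0.64. With 1 mouse left out it passed only without ZnR mouse 7 (adjusted p = 0.0462), and reached 0.123 without control mouse 5. Rassf3, of the same protein family, measured -0.47 ± 0.09 SE (limma adjusted p = 0.0514).

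Of 18 measured genes whose products bind Rem2 or Rasd1 or act beside them, such as calcium channel subunits and adenylyl cyclase, 0 passed in limma and 5 had an unadjusted p under 0.05. The median difference was -0.05. Nos1ap, the adaptor that joins Dexras1 to neuronal nitric oxide synthase, measured -0.50 ± 0.14 SE (limma adjusted p = 0.143), and Adcy1 measured -0.43 ± 0.10 SE (0.0828).

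Rasd1 and Rem2 are both known as inducible genes, so genes induced by neuronal activity and by glucocorticoids were set beside them. Of 25 activity-induced genes 3 fell and 22 did not pass, beside 1.27% of all genes called lower. An unadjusted p under 0.05 was found for 5 of the 25, beside 18.8% of all genes. On average 4 were higher and 21 lower, with a median difference of -0.18. The 3 that fell were Bdnf (log2 difference -1.19 ± 0.10 SE, limma adjusted p = 0.00624), Nr4a2 (-1.20 ± 0.19 SE, 0.0368) and Ptgs2 (-0.98 ± 0.18 SE, 0.04999). Bdnf passed in every fit with 1 mouse left out but that without control mouse 5 (adjusted p = 0.0686). Nr4a2 and Ptgs2 passed in none of these fits, with adjusted p from 0.0546 to 0.106 and from 0.0679 to 0.16. Bdnf encodes a neurotrophin, Nr4a2 a nuclear receptor and Ptgs2 a cyclooxygenase. The summed log2 level of the list was 217.7, 200.5 and 195.9 in ZnR mice 3, 7 and 11, against 217.6, 214.6 and 206.7 in control mice 1, 5 and 9. The mean difference of the list was 0.003 in the low-18S pair and -0.49 in the other 4 mice. The groups overlapped, and ZnR mouse 3 and control mouse 1 had nearly the same sum, the highest of the 6 mice. For Rem2, ZnR mouse 3 measured 8.95 and 6.95 on the 2 probe sets, against 8.21 and 6.21 in control mouse 1. For Rasd1, ZnR mouse 3 did not stand apart from the other ZnR mice, and control mouse 1 was the lowest mouse. Any tie of Rem2 or Rasd1 to the activity-induced genes was not tested. Of 18 glucocorticoid-induced genes 0 passed in limma, 2 had an unadjusted p under 0.05, and the median difference was 0.08. Mt2, a metallothionein gene, measured 0.28 ± 0.10 SE (limma adjusted p = 0.215) and Cdkn1a, a cell cycle inhibitor gene, -0.33 ± 0.09 SE (0.143). The summed log2 level was 148.8 to 153.6 in ZnR mice and 148.8 to 150.1 in control mice.

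**Figure D4:**
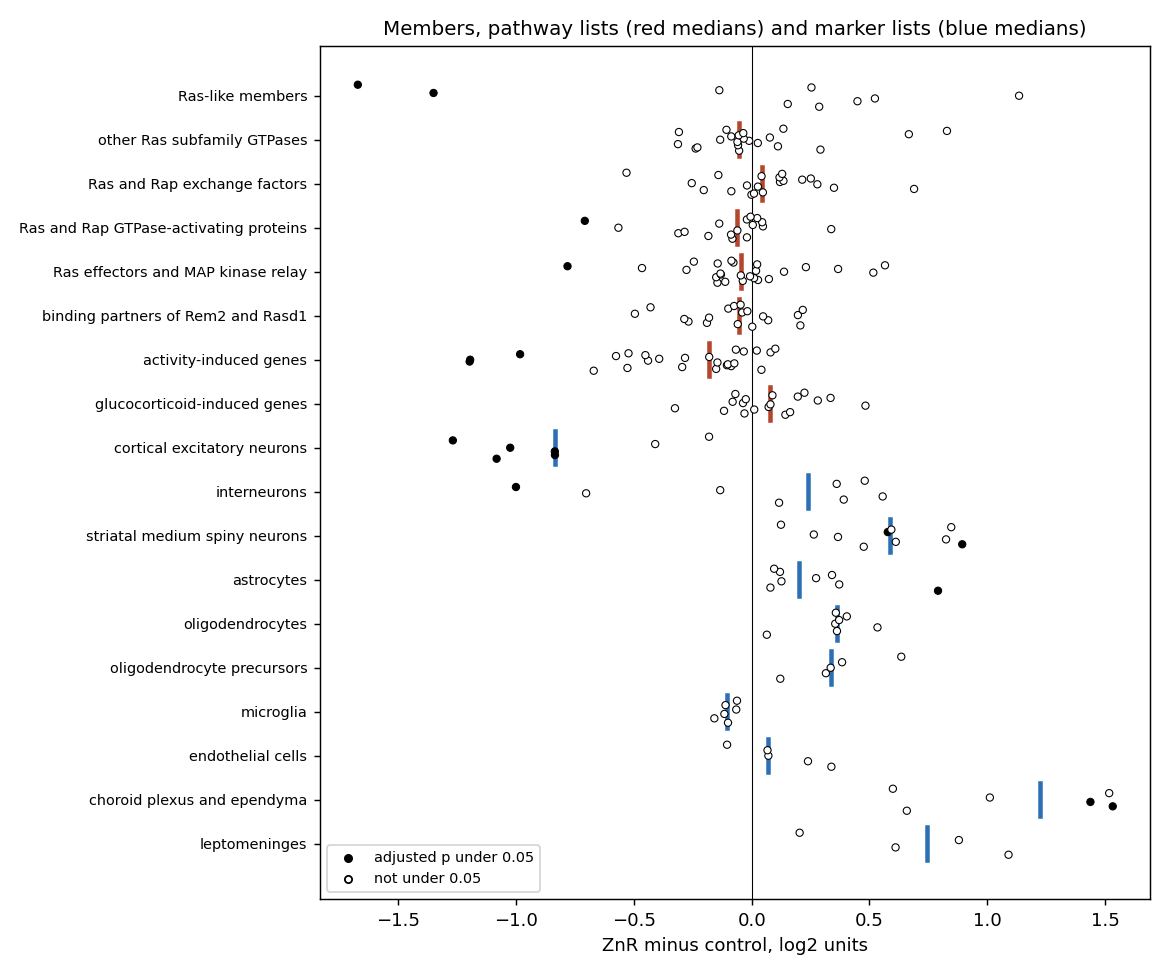
Log2 difference, ZnR minus control, of each tested member probe set, of each measured gene of 7 pathway lists (red bars at the medians) and of the cell type marker lists (blue bars at the medians); filled points have a limma adjusted p under 0.05 over all probe sets tested. The medians of the Ras pathway lists are near 0, while the excitatory neuron markers lie to the left and the striatal and ventricular markers to the right.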

How the data were processed

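Total RNA (500 ng per mouse) was hybridised to 1 Affymetrix Mouse430_2 array each, per the labels' protocols. The authors deposited log2 expression values per probe set. The submitters' processing notes name GCRMA 2.28.0 and R 2.15.1. The GCRMA method corrects background by probe sequence and makes distributions alike, so a change of total RNA cannot be seen and dim values are compressed. No genome build for the values is given in the sources used here.

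Probe sets above 4 log2 units on at least 3 of 6 arrays were kept, array controls aside (25381). Diets were compared in limma 3.58.1 (R 4.3.3), 2-sided, with Benjamini-Hochberg adjustment over all kept probe sets and a threshold of 0.05. Folds were computed as powers of 2 of the log2 differences. Genes in lists were represented by the kept single-gene probe set with the highest mean; current symbols and chromosomes came from a RefSeq table. Named genes were all members, the genes with the smallest p in each of 7 pathway and 11 marker lists (up to 4 past the threshold and at least 2 per pathway list, 1 per marker list), and 5 genes most like each of Rasl10a and Rasl11b. Slc17a7 is named under the last part and as a marker, and Rassf5 and Garnl3 also gave the calls of their lists. The members and lists were chosen with earlier results of these data known. Motifs were counted on both strands. The alternatives were other level filters, renewed quantile normalization, other variance priors, array weights, the low-18S pair as a block or left out, each mouse left out and, chosen after seeing the data, neighbouring mouse numbers as a block.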

Additional observations from a re-analysis of the deposited data

How the results depend on the processing

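The diets share no mouse number and the labels state no pairing. A fit with neighbouring mouse numbers (1 and 3, 5 and 7, 9 and 11) as a replicate block, chosen after seeing the data, called 235 of all probe sets, 2 members, 2 activity genes and 0 activating proteins. In that fit Garnl3 (adjusted p = 0.055), Gpr6 (0.053) and Ptgs2 (0.0605) were not called, Igf2 was (0.0382), and no other named gene changed its call. No named gene changed direction in any of 658 refits of 44 probe sets, but many of these refits could not have turned it. The level filters, the other variance priors and both block fits leave the difference itself unchanged. For genes whose diets do not overlap, leaving out a mouse or the low-18S pair could not turn the direction either. The count of all probe sets past the threshold (373) was 2003 with array weights, 916 with a variance trend, 1 without the low-18S pair, and 1 (without control mouse 5) to 109 with a mouse left out. The member count (2), a description that follows from the choice of members, was 3 with array weights or a trend, 0 without the low-18S pair, and 0 (without control mouse 5) to 2 with a mouse left out. Of the 22 named probe sets past the threshold, leaving out ZnR mouse 3 lost 14, ZnR mouse 7 lost 5, ZnR mouse 11 lost 14, control mouse 1 lost 8, control mouse 5 lost all 22, control mouse 9 lost 11 and the low-18S pair lost all 22.

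With array weights the calls were 3 other Ras GTPases, 1 exchange factor, 2 GTPase-activating proteins, 4 effectors, 1 binding partner, 5 activity genes and 1 glucocorticoid gene. With a trend they were 3 other GTPases, 2 activating proteins and 1 binding partner. The strict level filter (above 6) gave 1 other GTPase and 3 effectors, the low-18S block 1 and 2, and renewed quantile normalization 2 effectors. Without the low-18S pair, effectors, activating proteins and activity genes had 0 calls. With a mouse left out, effectors had 0 to 1, activating proteins 0 throughout and activity genes 0 to 1. Except for these settings' own construction (fewer probe sets or mice), the cause was not tested. Ptgs2 did not pass with robust variances (0.053) or the low-18S block (0.0538).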
